A study of Mus musculus with 6 samples.

Results

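The transcripts described here encode 10 subunits of the potassium channels that repolarise heart muscle, chosen by name: Kcne1, Kcnh2, Kcnq1, Kcnj2, Kcnj3, Kcnj11, Kcnd2, Kcnd3, Kcnip2 and Kcna5. All 10 were found by gene symbol among the 57010 gene identifiers of the deposited table, and 9 of them passed the filter on low values, at least 1 TPM in at least 3 libraries. TPM is a transcript abundance scaled for transcript length and library total, so levels of different genes can be set side by side. RNA came from mouse heart ventricles at postnatal day 14, from 3 control and 3 Cend1-KO libraries. Cend1 is named for its part in neurons that leave the cell cycle. The title of the series concerns its suppression by LSD1, a histone demethylase, in the regenerating heart. The comparison asked here is which channel transcripts differed in the ventricle when Cend1 was deleted. The deposited table names the control columns WT. The labels give neither the strain, the sex, nor the design of the deleted allele, nor whether any library pooled animals or shared one. The p-values therefore rest on the spread among these 6 libraries, part of which may be technical.

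Potassium channels end the cardiac action potential by letting potassium leave the cell. The pore is built from alpha subunits, and smaller accessory subunits set how fast it opens and how much of it reaches the membrane. In mice the delayed rectifier currents carried by the products of Kcnh2 and of Kcnq1 with Kcne1 are prominent in the fetal and newborn heart and decline after birth. The fast transient outward current, built from Kcnd2, Kcnd3 and Kcnip2, and the ultrarapid current of Kcna5 grow over the same weeks and dominate repolarisation in the adult mouse. Kcnj2 carries the inward rectifier that holds the resting potential, Kcnj3 with Kcnj5 forms the channel opened by acetylcholine, and Kcnj11 is the pore of the channel closed by ATP.

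The deleted gene itself, Cend1, had 1.44, 1.99 and 1.54 TPM in the controls, and every Cend1-KO library listed it at 0. The 20 genes called sarcomere genes here summed to between 79160 and 88450 TPM in controls and between 46440 and 67630 in Cend1-KO. Among them are Pln, Casq2 and Ryr2, which belong to calcium cycling in the sarcoplasmic reticulum. Mitochondrial-genome genes took 34.9% of TPM in Cend1-KO replicate 3 and between 17.9% and 22.9% in the other libraries. Median-of-ratios factors, which bring the typical gene of each library to the same level, ran from 0.714 in Cend1-KO replicate 3 to 1.24 in Cend1-KO replicate 1. As deposited, the median difference over all 13542 tested genes was -0.11 on the log2(TPM + 1) scale, Cend1-KO minus control, and after that scaling it was 0.0020. Differences are given on that log2 scale throughout, as deposited and after scaling. The surfactant gene Sftpc, made in lung, reached 437.4 TPM in Cend1-KO replicate 1 and 702.9 TPM in replicate 4, against 0.107 TPM in replicate 3, while no control listed it above 0. Levels of Xist, which silences an X chromosome, were 16.4 TPM for control replicate 4, 7.37 TPM for Cend1-KO replicate 1 and 0.0555 TPM or less for the other 4 libraries.

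In control ventricles Kcne1 was the most abundant member, at 117.7 ± 14.7 TPM (SD, n = 3, as for all means below). Kcnip2 followed at 85.2 ± 24.0 TPM, and the values of these genes overlapped. Kcnj11 (27.1 ± 6.45 TPM) and Kcnh2 (19.8 ± 2.27) came next and also overlapped each other. Below them lay Kcnq1 at 8.99 ± 0.854 TPM, and then Kcna5, Kcnj2 and Kcnj3, at 6.21, 5.45 and 4.73 TPM, each overlapping its neighbour. Kcnd2 was at 2.06 ± 0.834 TPM and Kcnd3 lowest, at 0.437 ± 0.0872. Kcne1 and Kcnip2 together made between 70.9% and 75.4% of the summed TPM of the 10 genes in controls and between 63.6% and 66.1% in Cend1-KO. In Cend1-KO ventricles the order was the same for the first 3 genes, and Kcna5, below Kcnq1 in controls, stood next after Kcnj11 at 15.6 ± 10.5 TPM, with a range that overlapped those of Kcnj11 and Kcnh2.

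**Figure D1:**
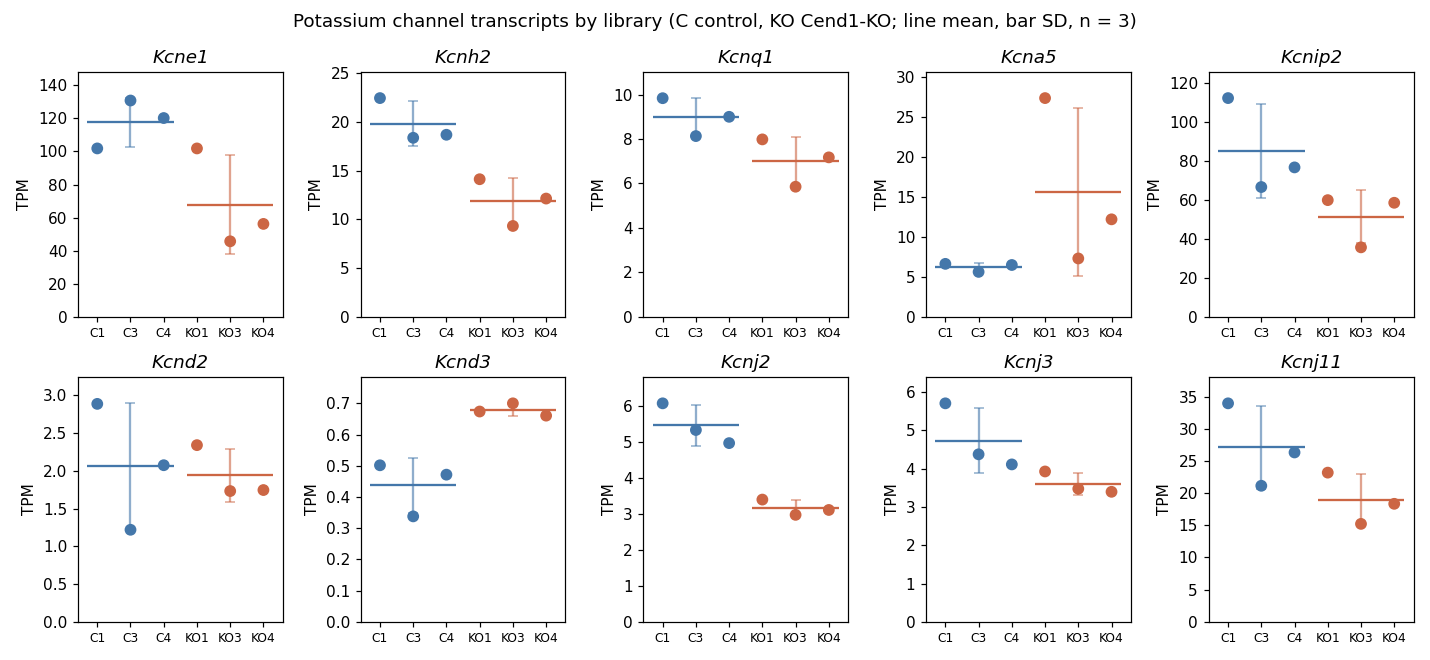
TPM (y axis, from 0) of each of the 10 subunits in the 6 libraries, with C for control and KO for Cend1-KO, the replicate number after it, lines for group means and bars for the SD (n = 3). Kcnh2, Kcnj2 and Kcnip2 were lower in every Cend1-KO library than in any control, as were Kcnq1 and Kcnj3 by little. Kcna5 and Kcnd3 were higher in every Cend1-KO library, and Kcne1 of Cend1-KO replicate 1 lay at the level of the lowest control.

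As deposited, 8 of the 9 tested members were lower in Cend1-KO and 1, Kcna5, was higher, where 62.4% of all tested genes were lower. The median difference of the 9 was -0.49. The groups did not overlap for 6 members that were lower and for 1 that was higher, where 18.6% and 5.67% of all tested genes separated in those directions. None of the 9 passed the test over all genes: limma with Benjamini-Hochberg adjustment called 0 at an adjusted p under 0.05, where 1.7% of all tested genes were called (0.908% lower and 0.79% higher), and 5 members had an unadjusted p under 0.05, as had 15.4% of all genes. After median-of-ratios scaling limma called 3 of the 9, where 10.3% of all tested genes were called. Kcne1 and Kcnh2 fell (4.14% of all genes fell) and Kcna5 rose (6.17% of all genes rose), and the median of the 9 was -0.36. On the scaled values 7 of the 9 were lower, as were 49.7% of all tested genes, and the groups did not overlap for 5 lower members and 1 higher member, against 17% and 17.9% of all tested genes. With either control replicate 1 or control replicate 3 left out, 0 of these 3 calls were made. Leaving out control replicate 4 gave 2 (Kcnh2 and Kcna5), Cend1-KO replicate 1 gave 2 (Kcne1 and Kcna5) and Cend1-KO replicate 4 gave 1 (Kcna5). Leaving out Cend1-KO replicate 3 gave 3, with Kcnj2 in place of Kcne1.

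**Figure D2:**
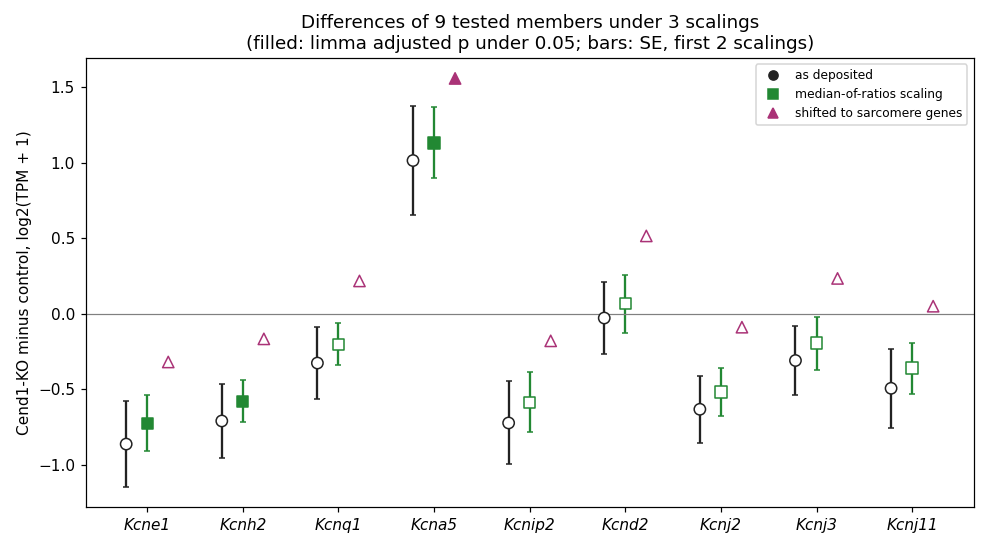
Cend1-KO minus control difference on the log2(TPM + 1) scale (y axis) for the 9 tested subunits, as deposited (circles), after median-of-ratios scaling (squares) and after a shift that brings the median sarcomere gene to the same level in every library (triangles). Filled symbols passed the test (limma adjusted p under 0.05) and bars give the SE for the first 2. Kcna5 was above 0 under all 3, at 1.02, 1.13 and 1.56, and Kcnq1, Kcnj3, Kcnj11 and Kcnd2 changed sign with the scaling.

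Among the delayed rectifier subunits, Kcne1 encodes the small accessory protein that slows the Kcnq1 channel (mm10 chromosome 16, 92345982 to 92359468, minus strand, exons of 3214 bp in all). Kcne1 was at 101.86, 130.88 and 120.27 TPM in the control libraries 1, 3 and 4 and at 101.85, 45.6 and 56.1 TPM in the Cend1-KO libraries 1, 3 and 4. Cend1-KO replicates 3 and 4 were well below the controls, while replicate 1 equalled control replicate 1 to within 0.01 TPM, so that the groups did not overlap by that margin alone. The mean was 0.577 times that of controls, with a difference of -0.86 (SE 0.28, adjusted p = 0.164, limma). After median-of-ratios scaling the difference was -0.72 (SE 0.19, adjusted p = 0.0369), and as deposited without Cend1-KO replicate 1 it was -1.19 (adjusted p = 0.00726).

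Kcnh2 encodes the pore of the rapid delayed rectifier, known as ERG1 (mm10 chromosome 5, 24319589 to 24351604, minus strand, exons of 4845 bp in all). It was at 22.5, 18.4 and 18.7 TPM in the control libraries 1, 3 and 4 and at 14.1, 9.31 and 12.1 TPM in the Cend1-KO libraries 1, 3 and 4. All 3 Cend1-KO libraries were below all 3 controls, as deposited and after scaling. The mean was 0.597 times that of controls, with a difference of -0.71 (SE 0.25, adjusted p = 0.189, limma) and of -0.58 (SE 0.14, adjusted p = 0.0295) after scaling. Kcnq1, the pore of the slow delayed rectifier, was at 9.84, 8.13 and 8.9995 TPM in controls and 7.98, 5.85 and 7.17 TPM in Cend1-KO, in the same order of replicates. Its groups separated narrowly as deposited and overlapped after scaling, with differences of -0.33 (SE 0.24, adjusted p = 0.546) and -0.20 (adjusted p = 0.365), neither past the test. Kcnq1 lies 1.68 Mb from Cend1 on chromosome 7 (mm10, 143106362 to 143427042, plus strand, exons of 4093 bp in all), and no member lies nearer. Its antisense transcript Kcnq1ot1, which shares 121 bp of exons with it, was at 0.0349 TPM or less in every library. The exons of Kcnq1ot1 come to 93092 bp, far more than those of Kcnq1. TPM is scaled for length, so that low value does not by itself mean few reads. The ratio of Kcne1 to Kcnq1 within a library was 10.3, 16.1 and 13.4 in control replicates 1, 3 and 4 and 12.8, 7.79 and 7.82 in Cend1-KO, so the groups overlapped through Cend1-KO replicate 1.

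Among the subunits that grow toward adulthood, Kcnip2 encodes KChIP2, a calcium-binding protein that carries the transient outward channel to the membrane (mm10 chromosome 19, 45791839 to 45816061, minus strand, exons of 3476 bp in all). It was at 112.3, 66.6 and 76.7 TPM in the control libraries 1, 3 and 4 and at 59.9, 35.6 and 58.5 TPM in Cend1-KO. Every Cend1-KO value was below every control, and control replicate 1 stood far above the other controls. The mean was 0.602 times that of controls, with a difference of -0.72 (SE 0.28, adjusted p = 0.228, limma) and of -0.58 (SE 0.20, adjusted p = 0.0894) after scaling, neither of which passed.

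Kcna5 encodes the pore of the ultrarapid current, Kv1.5, with 1 annotated start (mm10 chromosome 6, 126532551 to 126535412, minus strand, exons of 2862 bp in all). It was at 6.598, 5.59 and 6.46 TPM in the control libraries 1, 3 and 4 and at 27.4, 7.28 and 12.2 TPM in the Cend1-KO libraries 1, 3 and 4. The controls lay close together, and the Cend1-KO libraries were all higher and spread widely, with replicate 3 just above the controls and replicate 1 far above them. The mean was 2.51 times that of controls, with a difference of 1.02 (SE 0.36, adjusted p = 0.198, limma). After scaling the difference was 1.13 (SE 0.23, adjusted p = 0.0173). Without Cend1-KO replicate 1 it was 0.54 as deposited (adjusted p = 0.169) and 0.82 after scaling (adjusted p = 0.00982). Under the median-of-ratios scaling the call was lost without control replicate 1 or 3, with adjusted p = 0.0570 and 0.0748.

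Kcna5 is also made in cells of blood vessels, and markers of other cell types differed between the same libraries. The summed TPM of 12 endothelial markers was 1618 to 1956 in controls and 5242, 2316 and 3004 in Cend1-KO replicates 1, 3 and 4. Fabp4 made most of that sum, at 1236.1 to 1516.8 TPM in controls and 4011.5, 1933 and 2488.4 TPM in those Cend1-KO libraries. As deposited 4 of the 12, Fabp4 among them, were higher in every Cend1-KO library than in any control, and the others overlapped. Of all tested genes 5.67% separated in that direction. The sum of 9 mural cell markers, of smooth muscle and pericytes, was 492.5 to 677.5 in controls and 986.4, 635.1 and 629.8 in Cend1-KO, and overlapped. The 10 fibroblast markers summed to 1594 to 2964 TPM in controls and to 5308, 3482 and 3723 TPM in those Cend1-KO libraries. The 10 macrophage markers summed to 692.7 to 1060 in controls and to 1776, 867.4 and 1730 in Cend1-KO, and overlapped through replicate 3. The 7 erythroid markers summed to 1390 to 4474 in controls and to 24500, 10630 and 11800 in Cend1-KO. As deposited, the endothelial, fibroblast, macrophage and erythroid sums all stood in the order of Kcna5 across the Cend1-KO libraries, highest in replicate 1 and lowest in replicate 3. That order was not particular to Kcna5 and these lists. The median-of-ratios factors shared it, at 1.24, 0.714 and 0.98 in replicates 1, 3 and 4. So did Kcne1, Kcnh2, Kcnq1, Kcnip2, Kcnj2, Kcnj11 and, by little, Kcnd2, whose means were lower in Cend1-KO, while Kcnj3 did not. These sums were not scaled. Of the 6 lung epithelial markers none exceeded 1 TPM in controls, where their sum was at most 0.0470, and the sum was 490.4, 0.224 and 789.1 in Cend1-KO replicates 1, 3 and 4. After scaling 5 of 12 endothelial, 6 of 10 fibroblast, 3 of 10 macrophage, 5 of 6 tested erythroid and 1 of 7 tested mural markers rose and none of these lists held a gene that fell (limma), where 6.17% of all tested genes rose. The 9 atrial markers summed to 411.4 to 603.1 in controls and 214.1 to 258.6 in Cend1-KO, of which Nppa made 324.0 to 530.8 and 141.7 to 188.5 TPM. Of the 7 tested, limma called 1 as deposited, Nppa (adjusted p = 0.0150), where 1.7% of all tested genes were called. Nppa fell after scaling too (adjusted p = 0.0336). The list was mixed: Stard10 was lower in every Cend1-KO library as well (adjusted p = 0.181), Myl7 was higher in every Cend1-KO library, at a mean 2.83 times that of controls (adjusted p = 0.102), and Nr2f2 rose after scaling (adjusted p = 0.0261, limma). Schwann cell and neuron markers summed to at most 5.17 TPM in any library. The part of these differences in the result for Kcna5 was not tested, and in whole ventricle fewer cells of a type and less RNA per cell cannot be told apart.

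**Figure D3:**
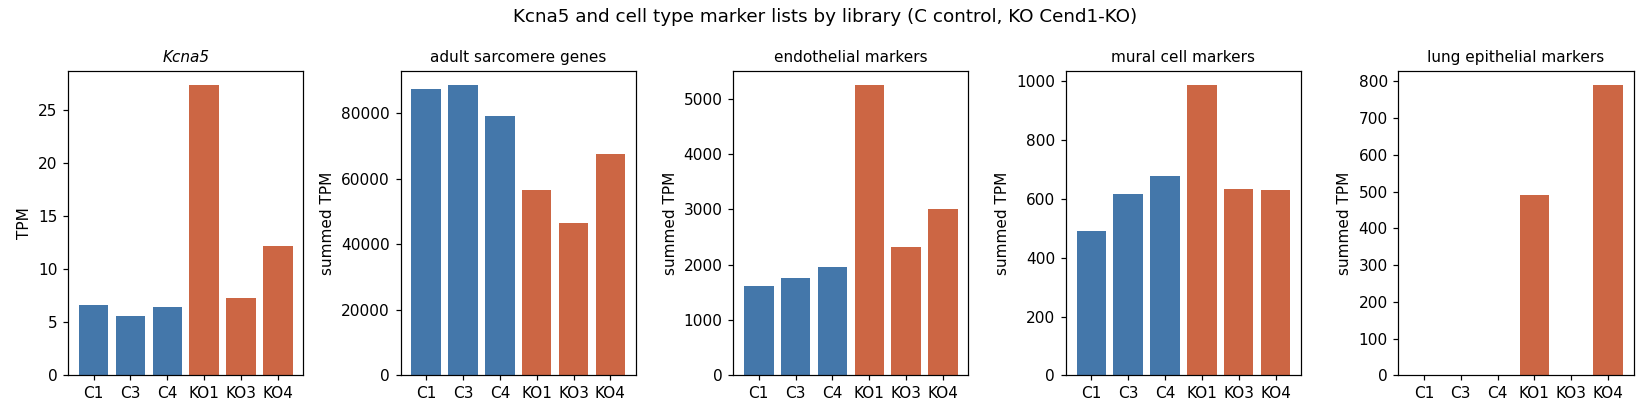
Kcna5 (TPM) and the summed TPM of 4 marker lists (y axes, from 0), with 1 bar for each library, C for control and KO for Cend1-KO. Kcna5 and the endothelial sum were highest in KO1, at 27.4 and 5242 TPM, the sarcomere sum was lower in each Cend1-KO library than in any control, and the lung sum was 0.224 in KO3. Fabp4 made most of the endothelial sum in every library.

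Values were also compared with the sarcomere genes as the reference, by shifting each library so that the median sarcomere gene had the same level. On that scale limma called 3206 genes, or 23.7% of those tested, with 0.517% lower and 23.2% higher. Of the 9 members 1 was called, Kcna5, with a difference of 1.56 (adjusted p = 0.00253). Kcne1, Kcnh2, Kcnip2 and Kcnj2 had differences of -0.32, -0.17, -0.18 and -0.088 (adjusted p = 0.348, 0.627, 0.573 and 0.80), and none passed. Kcnq1, Kcnj3, Kcnj11 and Kcnd2 were above 0 on this scale, at 0.22, 0.24, 0.051 and 0.52, and none passed.

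The mean log2(TPM + 1) of Kcne1 and Kcnh2, less that of Kcnip2 and Kcna5, sets the fetal delayed rectifier subunits against the adult ones within a library. It was 0.74, 1.26 and 1.02 in control replicates 1, 3 and 4 and -0.075, 0.33 and -0.032 in Cend1-KO, without overlap. The group means were 1.01 ± 0.26 and 0.075 ± 0.22 (SD, n = 3 each), a difference of -0.93 that stayed between -1.06 and -0.81 when any 1 library was left out. Its parts were unequal: the mean of Kcne1 and Kcnh2 was lower by 0.79, while that of Kcnip2 and Kcna5 overlapped between groups, at 4.62 ± 0.24 and 4.77 ± 0.63. With Kcnip2 alone on the adult side the groups overlapped and the difference was -0.063, so the separation rested on Kcna5. No test is given for this score, since it combines chosen members.

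**Figure D4:**
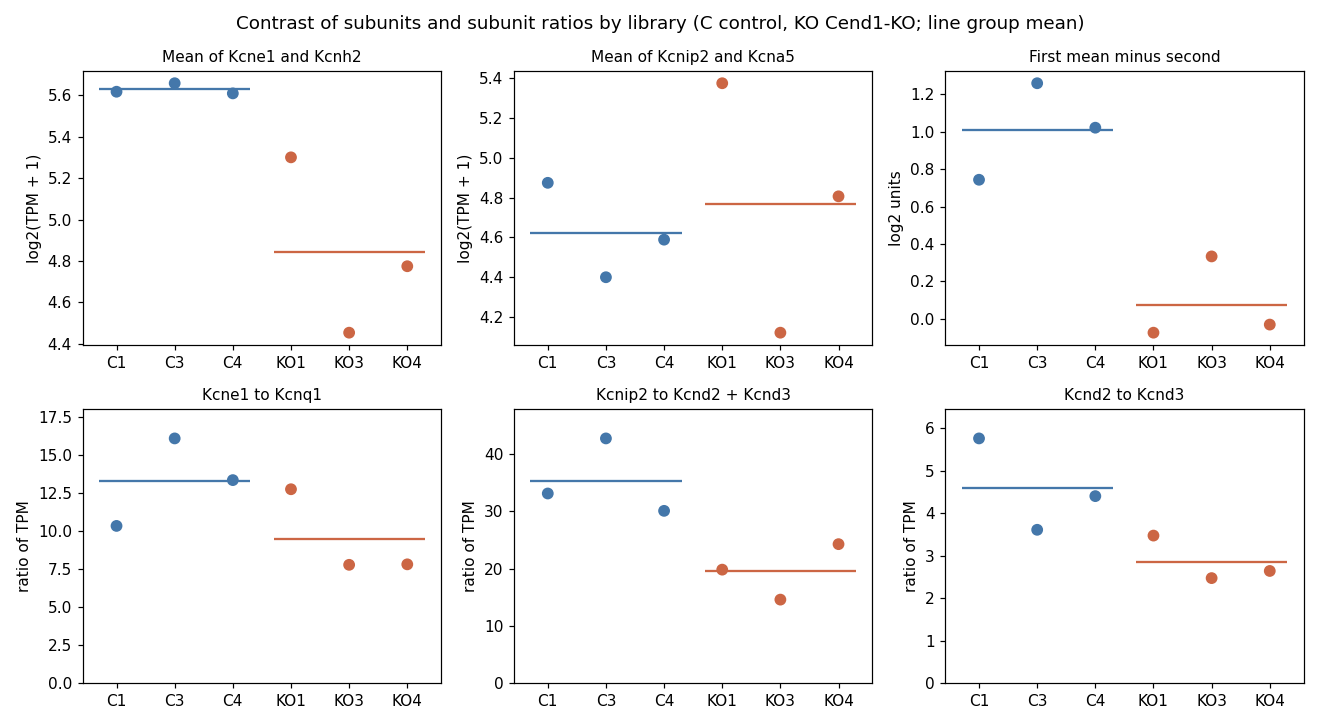
Top row, mean log2(TPM + 1) of Kcne1 and Kcnh2, of Kcnip2 and Kcna5, and their difference in each library; bottom row, TPM ratios of partner subunits, with lines for group means. The difference lay between 0.74 and 1.26 in controls and at most at 0.33 in Cend1-KO, and the ratio of Kcnip2 to Kcnd2 + Kcnd3 between 30.1 and 42.8 in controls and 14.6 and 24.3 in Cend1-KO.

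The pore subunits that KChIP2 serves were scarce beside it, and neither was lower in every Cend1-KO library. Kcnd2 (Kv4.2) was at 2.89, 1.22 and 2.08 TPM in the control libraries 1, 3 and 4 and 2.34, 1.73 and 1.75 TPM in Cend1-KO, with full overlap and a difference of -0.027 (SE 0.24, adjusted p = 0.970, limma). After median-of-ratios scaling its difference was 0.068, on the other side of 0. Kcnd3 (Kv4.3), which did not pass the filter, was at 0.502, 0.338 and 0.472 TPM in controls and 0.674, 0.70 and 0.661 TPM in Cend1-KO, higher in every Cend1-KO library. Kcnd3 shares 165 bp of exons with the antisense gene Kcnd3os, which was at 0.254 TPM or less in every library, and the library kit is not stated to mark strand. For each TPM of Kcnd2 and Kcnd3 together there were 33.1, 42.8 and 30.1 TPM of Kcnip2 in controls and 19.8, 14.6 and 24.3 in Cend1-KO, without overlap. The ratio of Kcnd2 to Kcnd3 was 5.76, 3.61 and 4.40 in controls and 3.47, 2.47 and 2.64 in Cend1-KO, also without overlap. Neither ratio depends on the scaling of a library, and no test was made on them.

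Kcnj2 (Kir2.1) is the main pore of the inward rectifier. Its values were 6.07, 5.33 and 4.96 TPM in the control libraries 1, 3 and 4 and 3.40, 2.97 and 3.11 TPM in Cend1-KO. The groups did not overlap on either scale, the mean was 0.579 times that of controls, and the difference was -0.63 (SE 0.22, adjusted p = 0.192, limma), or -0.52 (SE 0.16, adjusted p = 0.0686) after scaling. After scaling it passed without Cend1-KO replicate 3 (adjusted p = 0.0341). Kcnj12 (Kir2.2), which forms the same current with Kcnj2, was at 7.16, 4.48 and 5.41 TPM in controls and 8.49, 5.02 and 5.52 TPM in Cend1-KO and overlapped, with a difference of 0.13 (adjusted p = 0.864).

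Kcnj11 (Kir6.2) was at 34.0, 21.1 and 26.3 TPM in the control libraries 1, 3 and 4 and 23.2, 15.2 and 18.3 TPM in Cend1-KO. Its groups overlapped through Cend1-KO replicate 1 and control replicate 3, and the difference of -0.49 (SE 0.26, adjusted p = 0.389, limma) did not pass. After scaling the groups separated, with a difference of -0.36, and the test was not passed either (adjusted p = 0.195). Abcc9, the sulfonylurea receptor that pairs with it in muscle, was at 22.5 ± 2.15 and 18.5 ± 4.33 TPM (adjusted p = 0.608), and Abcc8, the receptor of other tissues and of mouse atria, at 4.62 ± 0.751 and 3.13 ± 0.272 TPM (adjusted p = 0.377). The ratio of Kcnj11 to Abcc9 was 1.39, 1.05 and 1.15 in controls and 0.989, 0.93 and 1.18 in Cend1-KO and overlapped.

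Kcnj3 (Kir3.1) was at 5.71, 4.37 and 4.11 TPM in the control libraries 1, 3 and 4 and 3.93, 3.48 and 3.40 TPM in Cend1-KO. The groups separated by little as deposited and overlapped after scaling, and the difference of -0.31 (SE 0.23, adjusted p = 0.549, limma) did not pass. Kcnj3 shares 1621 bp of its 5215 bp of exons with the antisense gene Gm26794, so reads within that stretch cannot be told apart without strand. Its partner Kcnj5 (Kir3.4) was more abundant, at 16.4, 17.2 and 15.5 TPM in controls and 13.8, 9.57 and 13.2 TPM in Cend1-KO (difference -0.41, adjusted p = 0.445). The ratio of Kcnj3 to Kcnj5 was between 0.255 and 0.348 in controls and between 0.257 and 0.363 in Cend1-KO, over nearly the same range.

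Promoter sequences of 4 members are shown: those of Kcnh2, Kcnip2 and Kcna5, which the contrast of delayed rectifier and adult subunits uses, and that of Kcnj2, the pore of the inward rectifier. Each runs from 250 bases before to 50 after the start that RefSeq records on GRCm38.p6, the mm10 build, 5′ to 3′ on the gene's strand. Capitals mark the GC box, GGGCGG on either strand. The table of promoters held 7 of the 10 members.
Kcnh2, chr5:24329542-24329841, minus strand: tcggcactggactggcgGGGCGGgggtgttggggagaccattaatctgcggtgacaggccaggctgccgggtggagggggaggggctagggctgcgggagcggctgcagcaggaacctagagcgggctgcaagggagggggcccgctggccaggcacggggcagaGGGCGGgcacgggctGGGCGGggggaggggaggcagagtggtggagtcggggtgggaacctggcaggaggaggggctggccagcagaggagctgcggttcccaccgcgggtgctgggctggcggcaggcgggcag
Kcnj2, chr11:111065914-111066213, plus strand: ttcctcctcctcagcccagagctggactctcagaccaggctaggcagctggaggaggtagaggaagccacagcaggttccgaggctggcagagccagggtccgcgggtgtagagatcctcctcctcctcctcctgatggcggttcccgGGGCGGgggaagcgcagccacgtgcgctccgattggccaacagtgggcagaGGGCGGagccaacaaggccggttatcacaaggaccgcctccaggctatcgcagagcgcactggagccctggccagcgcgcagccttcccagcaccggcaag
Kcnip2, chr19:45816014-45816313, minus strand: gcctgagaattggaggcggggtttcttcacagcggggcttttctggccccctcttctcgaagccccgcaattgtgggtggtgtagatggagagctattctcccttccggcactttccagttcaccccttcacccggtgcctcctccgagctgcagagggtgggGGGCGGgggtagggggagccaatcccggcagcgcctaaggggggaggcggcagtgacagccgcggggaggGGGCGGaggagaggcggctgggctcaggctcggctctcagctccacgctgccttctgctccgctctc
Kcna5, chr6:126535506-126535805, minus strand: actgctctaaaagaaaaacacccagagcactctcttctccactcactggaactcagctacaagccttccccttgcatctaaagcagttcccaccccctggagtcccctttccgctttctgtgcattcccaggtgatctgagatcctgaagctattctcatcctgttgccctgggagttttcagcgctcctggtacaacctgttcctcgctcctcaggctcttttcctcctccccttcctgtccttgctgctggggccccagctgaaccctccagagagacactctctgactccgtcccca
The Kcnh2 window belongs to a start inside the gene, 1 of 5 that GENCODE annotates. The RefSeq start of Kcna5 lies 143 bp from its only GENCODE start, and its window lies wholly outside the GENCODE gene. For Kcnd2 and Kcnd3, not printed, the nearest GENCODE start is 157 and 440 bp from the RefSeq start. The windows of Kcnh2, Kcnj2 and Kcnip2 held 3, 2 and 2 GC boxes and that of Kcna5 held 0. Of the windows not printed, those of Kcnj3 and Kcnd2 held 1 each and that of Kcnd3 held 0. At least 1 GC box was found in 35.7% of all 32851 promoters in the table. The G and C content of these windows was 74.3%, 66.7%, 67% and 55% in the same order. None of the 4 held a TATA box (TATAAA, in 13.6% of all promoters), the GATA letters AGATAA (11.2%), the NKX2-5 letters CACTTNA (11.5%), the MEF2 motif (CTA, any 4 bases, then TAG; 3.69%) or the T-box letters AGGTGTNA (3.03%), searched on both strands. The Kcnd3 window held 1 match to the NKX2-5 letters. The E-box letters CANNTG, which read the same on both strands and occur in 72.3% of promoters, were found 0, 2, 1 and 2 times in Kcnh2, Kcnj2, Kcnip2 and Kcna5. These matches describe the letters of the windows only.

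Of 56 other potassium channel pore genes 12 were tested, and limma called 0 as deposited and 1 after scaling, against 1.7% and 10.3% of all tested genes, with a median difference of 0.029 as deposited and 0.12 after scaling. The gene called after scaling was Kcnt2, a sodium-activated channel, at 1.14 ± 0.317 and 2.63 ± 0.834 TPM (adjusted p = 0.126 as deposited and 0.0157 after scaling). The most abundant were the background leak channel Kcnk3 (39.7 ± 11.3 and 28.9 ± 6.55 TPM), the silent subunit Kcng2 (33.9 ± 6.82 and 23.0 ± 7.72) and Kcnj8. Kcnj8, the Kir6.1 pore of pericytes and smooth muscle, was at 20.7, 24.5 and 26.9 TPM in controls and 78.0, 22.5 and 30.4 TPM in the Cend1-KO libraries 1, 3 and 4, so that replicate 1 stood far above every other library, and replicate 3 lay within the controls. Kcng2, Kcnk3 and Kcnj8 had adjusted p = 0.345, 0.484 and 0.424 as deposited. Of 20 other accessory genes 8 were tested and limma called 0 on either scale, with a median of 0.0040. Among them were the caveolar protein gene Cav3 (142.5 ± 9.23 and 128.7 ± 37.6 TPM), the scaffold gene Dlg1 (13.96 ± 2.47 and 14.4 ± 2.87), Kcnip3 (1.03 ± 0.361 and 1.73 ± 0.793) and the beta subunit Kcnab2 (1.47 ± 0.377 and 2.18 ± 1.03), with adjusted p from 0.428 to 0.955.

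Of 22 genes that depolarise heart cells, restore their ion gradients or couple them, 15 were tested, and 14 of these were lower, with a median of -0.41, where 62.4% of all tested genes were lower. After scaling 12 of the 15 were lower, with a median of -0.30, against 49.7% of all tested genes. As deposited limma called 1 of the 15, where 1.7% of all tested genes were called, namely Cacnb2, a beta subunit of the L-type calcium channel, which fell from 20.1 ± 0.921 to 9.24 ± 0.931 TPM (adjusted p = 0.0383). After scaling Cacnb2 and the T-type calcium channel Cacna1g fell (adjusted p = 0.0225 and 0.0387), where 10.3% of all tested genes were called. Atp1b1, a beta subunit of the sodium pump, and Fxyd1, a regulator of the pump, were among the most abundant genes of the list and had differences of -0.65 and -0.55 (adjusted p = 0.154 and 0.315). Gjc1, a connexin, had -0.014 (adjusted p = 0.990).

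All 20 transcription factors linked to cardiac channel genes were tested, and 15 were lower, with a median of -0.31, where 62.4% of all tested genes were lower. After scaling 11 of the 20 were lower, with a median of -0.18, near the 49.7% of all tested genes. As deposited limma called 1 of the 20 and after scaling 3, against 1.7% and 10.3% of all tested genes. Ppargc1a, a coactivator of mitochondrial genes, fell from 29.9 ± 8.16 to 11.4 ± 1.13 TPM (adjusted p = 0.0219, limma). After scaling Gata4 and Tbx20 fell as well (adjusted p = 0.0160 and 0.0322). Gata4 was at 38.4 ± 6.17 and 21.7 ± 6.76 TPM as deposited (adjusted p = 0.165). Nkx2-5, Mef2a and the thyroid hormone receptor Thra, the most abundant of the list, had differences of -0.58, -0.46 and -0.20 (adjusted p = 0.279, 0.377 and 0.80). Klf15, a factor linked to Kcnip2 in mice, was at 13.2, 7.46 and 7.56 TPM in controls and 13.4, 12.1 and 11.8 TPM in Cend1-KO (difference 0.41, adjusted p = 0.494), and Nfatc4 had 0.39 (adjusted p = 0.515).

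The genes whose profiles over the 6 libraries lay closest to those of the contrasted members were found by the root-mean-square difference between log2(TPM + 1) profiles, each centred on its mean. They were Gm9790 and Rab4a for Kcne1, at 0.0586 and 0.0826, against 0.561 for the root-mean-square size of the Kcne1 profile. For Kcnh2 they were Crip2 and Tpi1, at 0.0487 and 0.0523 against 0.399, and for Kcnip2 Camk2a and C030006K11Rik, at 0.0642 and 0.0758 against 0.487. Those nearest to Kcna5, at 0.114 and 0.127 against 0.728, were Tmem140 and Ifi27l2a.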

How the data were processed

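RNA was measured in 3 control and 3 Cend1-KO libraries (replicates 1, 3 and 4 in each group, from the titles). Each column was assigned by the sample description that names it, because column and title numbers mostly differ. The tools listed in the submitters' processing notes are featureCounts 1.5.0-p3, HISAT2 2.0.5, fastp and CASAVA, and the build is mm10. Their annotation, and the step from reads to the deposited values, is not given in the sources used here. What the authors deposited are TPM values: each library sums to 1000000 and the values are not whole. TPM keeps no depth, so depth is unknown and no counting interval is given. Per the labels' protocols, TRIzol served for extraction and the NEBNext Ultra kit for library construction.

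Symbols and positions came from GENCODE M21 (mm10), which matched 52029 of 57010 identifiers, and promoters from RefSeq. The 13542 genes that reached 1 TPM in 3 or more libraries were tested by limma 3.58.1 in R 4.3.3 on log2(TPM + 1), which understates the change of low genes, with a mean-variance trend, a robust prior and Benjamini-Hochberg adjustment over all tested genes. The fit was tested on simulated data. The members and lists were chosen with earlier results of these data known. Genes are named by rule: all members and Cend1, partner subunits, and of each other list the called genes, the 3 most abundant and the 2 highest and 2 lowest differences; genes called only after scaling were named after their values were seen. Some genes that the rule names are not reported here. The alternatives were other scalings, filters, pseudocounts and priors, a replicate block and leaving out each library. Leaving out libraries under median-of-ratios scaling, and the block under it, were chosen after the data were seen.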

Additional observations from a re-analysis of the deposited data

How the results depend on the processing

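All 9 tested members kept their direction under the alternatives except as follows. Kcnd2 crossed 0, with 0.068 under median-of-ratios scaling (the same with the replicate block added), 0.064 under upper-quartile scaling, 0.52 relative to sarcomere genes, 0.074 without mitochondrial and hemoglobin genes, and from -0.24 to 0.16 when a library was left out (above 0 without control replicate 1 or Cend1-KO replicate 3 or 4); with median-of-ratios scaling it was 0.26 and 0.056 without control replicates 1 and 4 and 0.0975 and 0.1256 without Cend1-KO replicates 1 and 4. Relative to sarcomere genes Kcnq1, Kcnj3 and Kcnj11 crossed 0 too, at 0.22, 0.24 and 0.051. No member was called as deposited; 3 were called under median-of-ratios or upper-quartile scaling, 1 relative to sarcomere genes and 0 to 2 when a library was left out (Kcne1 and Kcnh2 when Cend1-KO replicate 1 was, and Kcna5 when Cend1-KO replicate 3 was). With median-of-ratios scaling and 1 library left out 0 to 3 were called. Of the other potassium channel genes, 12 pore and 8 accessory genes were tested as deposited and 0 were called. This became 1 under median-of-ratios or upper-quartile scaling, 1 without mitochondrial and hemoglobin genes and 6 relative to sarcomere genes. Of all tested genes, 1.7% were called as deposited, 10.3% under median-of-ratios scaling and 23.7% relative to sarcomere genes. Calls over all genes under the other settings follow below.

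Over all genes the 230 calls became 1396, 1405 and 3206 under median-of-ratios, upper-quartile and sarcomere scaling, 485 without mitochondrial and hemoglobin genes, 0 with no filter (limma over 30114 genes, 2894 at an unadjusted p under 0.05), 116 with a filter at 5 TPM, 113, 76 and 248 with control replicate 1, 3 or 4 left out, 669, 825 and 110 with Cend1-KO replicate 1, 3 or 4 left out, and, with median-of-ratios factors, 548, 468 and 1080 when control replicate 1, 3 or 4 was left out and 944, 1369 and 1136 when Cend1-KO replicate 1, 3 or 4 was. Same-numbered libraries deviated from their group means with correlations of -0.172, 0.0441 and -0.12, so the numbers were not taken as pairs, and not every library correlated best with its own number. With the replicate block 738 genes, 2 members (Kcne1 and Kcna5, adjusted p = 0.0446 and 0.00932, limma) and 1 other potassium channel gene were called; with median-of-ratios scaling and the block it was 1109 genes and 1 member, Kcna5. The cause of these differences was not tested. The difference in the contrast of delayed rectifier and adult subunits was -0.9985 with a pseudocount of 0.1. With no sequencing depth, the precision of the lowest values, such as Kcnd3, is unknown.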

Other observations

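Of 32 other potassium channel genes that were below the filter and above 0 in every library, 3 were lower and 3 higher in every Cend1-KO library than in any control. This is 18.8% of them, near the 15.9% of all 5992 such genes that separated in either direction. The genes given here were named after their values were seen. Kcna4 (Kv1.4), the pore of the slow transient outward current, had 0.566, 0.452 and 0.451 TPM in the controls and 0.245, 0.166 and 0.112 TPM in Cend1-KO, lower in every Cend1-KO library. Kcnv2, a silent subunit, was at 0.0703, 0.0266 and 0.0332 TPM in controls and 0.264, 0.294 and 0.447 in Cend1-KO, higher in every library. Kcnc2 (Kv3.2) was at 0.127, 0.171 and 0.113 TPM in controls and 0.482, 0.301 and 0.293 in Cend1-KO, also higher in every library. Of the depolarising genes, Hcn4, the pacemaker channel, was at 0.788, 0.642 and 0.686 TPM in controls and 0.355, 0.261 and 0.287 in Cend1-KO. None of these was tested, since they did not reach 1 TPM in 3 libraries.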
